A study of Mus musculus with 6 samples.

Results

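Tbx2, Tbx3, Tbx4 and Tbx5 are developmental members of the T-box family, and the data show Ezh2 binding around them in mouse T helper cells of the Th1 and Th2 types. The 4 genes lie in pairs in 2 windows of the genome build mm9. Tbx2 and Tbx4 share chr11:85630000-85735000, and Tbx3 and Tbx5 share chr5:120110000-120345000. The windows were chosen by position and hold 340 of the 2638957 bins of 1 kb on chromosomes 1 to 19 and X. The 5′ ends of Tbx2, Tbx3 and Tbx5 were taken near 85646000, 120121000 and 120285000, each to the nearest kb. No mm9 gene annotation was used here, so the 5′ end of Tbx4 was not placed. In RefSeq (GRCm38.p6) the order of protein-coding genes is Bcas3, Tbx2, Tbx4 and Brip1 on chromosome 11, and Med13l, Tbx3, Tbx5 and Rbm19 on chromosome 5.

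T-box genes encode transcription factors that share a DNA-binding domain, the T-box. Tbx2 and Tbx3 act mainly as repressors in the developing heart, limb and mammary gland, Tbx4 is a hindlimb and lung gene, and Tbx5 directs forelimb and heart formation. T helper cells use other members of the family, T-bet and Eomes. Ezh2 is a histone methyltransferase that places methyl groups on histone H3 as the enzyme of Polycomb repressive complex 2, and in many differentiated cells the complex covers developmental regulator genes in wide domains around their 5′ ends.

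The cells were naive CD4+ T cells (CD44 low, CD62L high) from the spleen of C57BL/6 mice, cultured for 5 days. All cultures received antibodies that stimulate the T cell receptor and CD28 for 2 days, followed by 3 days without them, and IL-2 at 15 ng/ml. Th1 cultures also had IL-12 at 10 ng/ml and an antibody that blocks IL-4, and Th2 cultures had IL-4 at 100 ng/ml and an antibody that blocks IFN-γ. Each cell type gave 1 library from a polyclonal antibody to Ezh2 (Diagenode), 1 from a control rabbit IgG (Southern Biotech) and 1 of input DNA. The number, sex and age of the mice were not given, and no RNA or protein was measured in these files, so the labelled cell types were not checked against markers.

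The Ezh2 libraries held 10809666 distinct positions on chromosomes 1 to 19 and X in Th1 and 14963599 in Th2, against 15578675 and 12862628 in the inputs. The Th1 control antibody library held 9326717. The Th2 control antibody file ended inside chromosome 17 and was used on the 8 chromosomes it held whole, with 5053626 positions, so for Th2 it covers the Tbx3 and Tbx5 window but not the Tbx2 and Tbx4 window. A position is a distinct interval, counted once at its midpoint whatever its number of reads. With 1 library in each group no spread between replicates could be measured. The 95% exact (Clopper-Pearson) intervals and the exact tests reflect counting error alone, and what they compare is single libraries. The deposited files of Th1 and Th2 Ezh2 have names with different prefixes, which may mark different sequencing runs; the labels name no run. If so, cell type and run cannot be told apart.

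Of the 4 genes, Tbx4 was matched in the RefSeq promoter table. Its sequence, from 250 bases before to 50 after a start site on the plus strand of chromosome 11 (GRCm38.p6), is shown because CpG-rich promoters are the usual sites of Polycomb binding in mammals. Capitals mark each CG.
Tbx4: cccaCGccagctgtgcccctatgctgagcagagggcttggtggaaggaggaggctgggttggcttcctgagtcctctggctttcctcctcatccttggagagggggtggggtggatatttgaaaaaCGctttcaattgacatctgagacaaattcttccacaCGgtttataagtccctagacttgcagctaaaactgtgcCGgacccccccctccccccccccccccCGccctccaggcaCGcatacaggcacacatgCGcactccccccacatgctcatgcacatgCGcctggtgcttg
This stretch held 8 CG, a motif that reads the same on both strands, and 48.7% of the 32851 promoters of the table held at least as many. Its G and C content was 59.0%, against a median of 52.7%, but its CG count was 0.314 of that expected from its C and G. By its CG count the stretch was not CpG-rich. The stretch was not placed on the mm9 reads.

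Ezh2 stood above input in both windows and both cell types. In the Tbx2 and Tbx4 window the Ezh2 library held 3517 positions against 836 in the input of Th1, a fold of 6.06 per library total (95% interval 5.62 to 6.55). In Th2 the counts were 5562 and 749, a fold of 6.38 (5.91 to 6.90). The longer Tbx3 and Tbx5 window held 2318 Ezh2 and 1402 input positions in Th1, a fold of 2.38 (2.23 to 2.55), and 4255 and 1161 in Th2, a fold of 3.15 (2.95 to 3.36). The control antibody stayed near input. It was 0.981-fold over input in the Tbx2 and Tbx4 window of Th1 (0.876 to 1.10), and in the Tbx3 and Tbx5 window 1.06-fold (0.977 to 1.16) in Th1 and, for Th2, 0.932-fold (0.856 to 1.02).

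Bins were called by a one-sided exact binomial test of Ezh2 against input, at an adjusted p below 0.05 over all tested bins of the genome and a fold of at least 2. Of the bins tested in the Tbx2 and Tbx4 window, 46 of 102 were called in Th1 and 41 of 104 in Th2. In the Tbx3 and Tbx5 window 38 of 173 were called in Th1 and 53 of 205 in Th2. Over all tested bins of the genome 0.992% were called in Th1 and 1.21% in Th2. The control antibody gave 0 called bins among those with enough positions to test. These were 78 bins of the Tbx2 and Tbx4 window in Th1, where its Th2 file had no data. In the Tbx3 and Tbx5 window they were 115 in Th1 and 108 in Th2. Over the genome 0.00151% of tested control bins passed in Th1, and 0% in Th2 on the 8 chromosomes held whole. Calls shared by Th1 and Th2 numbered 37 in the chromosome 11 window, or 80.4% of all Th1 calls and 90.2% of all Th2 calls. In the chromosome 5 window they numbered 36, or 94.7% of all Th1 calls and 67.9% of all Th2 calls. Over all tested bins of the genome 8501 calls were shared, or 64.3% of all Th1 calls and 49.8% of all Th2 calls; the difference between the windows and the genome was not tested. A bin called in one cell type alone is not thereby shown to differ between them, and a bin that was not called is not shown to lack Ezh2.

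Among the genes with a placed 5′ end, Tbx2 had the most Ezh2. In the 5 bins centred on its 5′ end the Ezh2 library held 576 positions against 37 in the input of Th1, and 897 against 30 in Th2. Per library total, Ezh2 was 22.4 times the input of Th1 (95% interval 16.1 to 32.2) and 25.7 times that of Th2 (17.9 to 38.3). Tbx3 had 161 Ezh2 and 32 input positions in Th1, a fold of 7.25 (4.94 to 11.0), and 398 and 24 in Th2, a fold of 14.3 (9.44 to 22.5). Tbx5 had 167 and 31 in Th1, a fold of 7.76 (5.27 to 11.8), and 328 and 25 in Th2, a fold of 11.3 (7.50 to 17.7). In Th1 the interval of Tbx2 lay above those of Tbx3 and Tbx5, whose intervals overlapped. In Th2 the interval of Tbx2 overlapped that of Tbx3 and lay just above that of Tbx5. All 5 bins of each gene were called in both cell types. The control antibody was 1.17-fold over input at Tbx2 in Th1 (0.682 to 1.99), 1.15-fold at Tbx3 in Th1 (0.636 to 2.04) and in Th2 (0.634 to 2.09), and 1.02-fold at Tbx5 in both, so every control interval held 1.

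**Figure D1:**
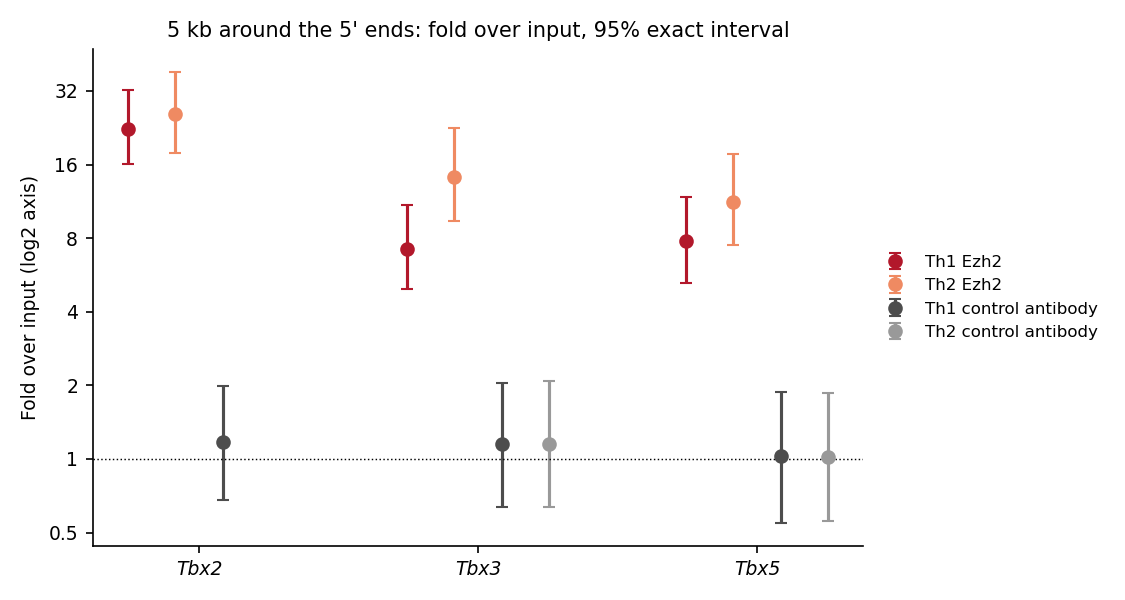
Fold over input of Ezh2 and of the control antibody in the 5 bins of 1 kb around the 5′ ends of Tbx2, Tbx3 and Tbx5 (log2 axis), with 1 library per point and 95% exact intervals as bars. Ezh2 points run from 7.25 to 25.7 and control points from 1.02 to 1.17; the Th2 control antibody is missing at Tbx2 because its file did not hold that chromosome.

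To find the extent of binding, the Ezh2 libraries of Th1 and Th2 were summed and tested against the summed inputs, and called bins were joined into regions across gaps of up to 1 bin. Since this chose the regions for Ezh2 over input, their folds are a description. Over the genome 1.28% of tested bins were called in this way, which gave 2902 regions of at least 3 kb with a median fold of 3.75 in Th1 and 4.52 in Th2. The T-box windows overlapped 14 regions, of which 7 were at least 3 kb and 5 at least 10 kb.

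The Tbx2 region ran from 85637001 to 85661000 on chromosome 11. It spanned 24 kb, from 9 kb on the lower-coordinate side of the Tbx2 5′ end to 15 kb on the higher side. It held 1856 Ezh2 and 200 input positions in Th1, a fold of 13.4 (95% interval 11.6 to 15.6), and 2937 and 150 in Th2, a fold of 16.8 (14.3 to 19.97). With the control antibody the Th1 fold was 0.969 (0.764 to 1.22). By fold of both libraries together it ranked 2 of the 2902 regions, and 1 of the 146 regions of at least 20 kb, whose median fold was 6.70 in Th1 and 8.37 in Th2. For scale, the 4 widest regions of the genome, on chromosomes 15, 11, 2 and 6, lay between 7.06-fold and 9.60-fold in Th1 and between 8.25-fold and 12.2-fold in Th2.

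Ezh2 at Tbx2 was high across neighbouring bins, with its maximum above the 5′ end in both cell types. From 4 kb below to 9 kb above the 5′ end, the 14 bins held between 67 and 166 Ezh2 positions each in Th1 and between 88 and 247 in Th2. These were 6.20 to 15.4 per 1000000 library positions in Th1, with a median of 10.5, and 5.88 to 16.5 in Th2, with a median of 11.8. In the same bins the Th1 control antibody held 0.214 to 0.965 per 1000000 positions. The inputs held 0.128 to 0.834 in Th1 and 0.155 to 0.855 in Th2. The bounds of this stretch follow where Ezh2 was high, so the gap between Ezh2 and these libraries is a description. The most positions lay 5 kb above the 5′ end in Th1, with 166, and 4 kb above it in Th2, with 247. The bin with the highest fold in Th1 was 85645001 to 85646000, with 116 Ezh2 and 2 input positions, 83.6-fold (22.6 to 698). In Th2 it was 85651001 to 85652000, with 230 and 2, 98.9-fold (27.1 to 821). Such folds of single bins rest on few input positions, and their intervals are wide.

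The second wide region of that window, 85693001 to 85717000, lay 47 to 71 kb above the 5′ end of Tbx2, on the side where RefSeq has Tbx4 as the next protein-coding gene. It also spanned 24 kb and held 952 Ezh2 and 202 input positions in Th1, a fold of 6.79 (95% interval 5.83 to 7.95), and 1570 and 195 in Th2, a fold of 6.92 (5.96 to 8.07). These folds lay below those of the Tbx2 region in each cell type, with no overlap of the intervals. The control antibody gave a Th1 fold of 0.877 (0.686 to 1.11). In steps of 5 kb the Ezh2 positions were 95, 262, 341, 173 and, in the last 4 kb, 81 in Th1, and 148, 478, 547, 294 and 103 in Th2, so the middle of the region was highest in both. Called in each cell type alone, the core was 85698001 to 85715000 in Th1, at 8.32-fold (6.96 to 10.0), and 85698001 to 85711000 in Th2, at 10.9-fold (8.83 to 13.5). The cores differ in length and each was set by its own library's calls, so their folds do not compare Th1 with Th2.

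**Figure D2:**
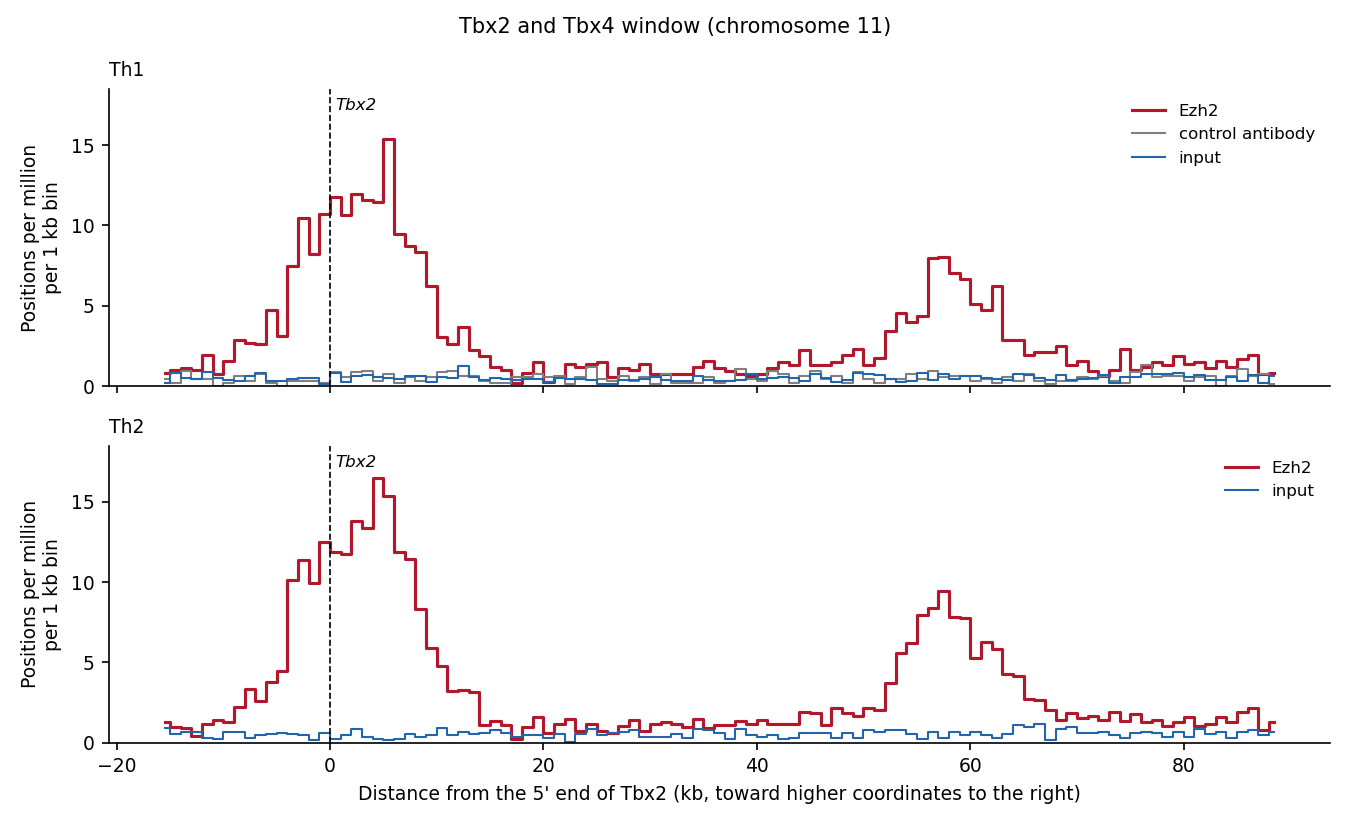
Ezh2, control antibody and input positions per 1000000 library positions in each 1 kb bin of the Tbx2 and Tbx4 window, by distance in kb from the 5′ end of Tbx2 (dashed line), with Th1 above and Th2 below and 1 library per line. The highest Ezh2 bin, near Tbx2, was 15.4 in Th1 and 16.5 in Th2, and Ezh2 formed a lower second region 47 to 71 kb away, while control antibody and input stayed at or below 1.29.

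Between these 2 regions Ezh2 did not return to the level of input. Over the 32 kb from 85661001 to 85693000 there were 364 Ezh2 and 216 input positions in Th1, a fold of 2.43 (95% interval 2.05 to 2.89), and 553 and 215 in Th2, a fold of 2.21 (1.88 to 2.60). Over the same stretch the control antibody gave a Th1 fold of 1.14 (0.922 to 1.42). The 18 kb above the second region stood at 2.32-fold (1.90 to 2.85) in Th1, and in Th2 at 2.47-fold (2.02 to 3.02). In the chromosome 5 window the 103 kb between the Tbx3 region and the next one stood lower, at 1.34-fold (1.18 to 1.51) in Th1, and in Th2 at 1.42-fold (1.27 to 1.59). There the control antibody itself stood above input in Th1, at 1.18-fold (1.04 to 1.35), with an interval that overlapped that of Ezh2, so the Th1 excess over input is not shown to be Ezh2. In Th2 the control antibody was at 0.938-fold (0.824 to 1.07). For comparison, all bins outside called regions stood at 0.952-fold in Th1 and 0.940-fold in Th2 over the genome. Leaving out the called regions, the chromosome 11 window had folds of 2.03 (1.76 to 2.34) in Th1 and 1.95 (1.71 to 2.23) in Th2, and the chromosome 5 window of 1.33 (1.21 to 1.45) in Th1 and 1.36 (1.25 to 1.48) in Th2. The remaining regions of the chromosome 11 window were 1 to 4 kb long. Those of 3 and 4 kb, from 85688001 and from 85729001, had folds of 3.54 (2.12 to 6.10) in Th1 and 3.72 (2.10 to 7.03) in Th2, and of 3.21 (2.07 to 5.07) in Th1 and 2.79 (1.86 to 4.29) in Th2.

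The Tbx3 region was the widest of the T-box regions. It ran from 120106001 to 120141000 on chromosome 5, beyond the lower edge of the window, and spanned 35 kb, from 15 kb below to 20 kb above the Tbx3 5′ end; by width it ranked 30 of 2902. It held 758 Ezh2 and 247 input positions in Th1, a fold of 4.42 (95% interval 3.83 to 5.13), and 1685 and 168 in Th2, a fold of 8.62 (7.35 to 10.2). The control antibody had a fold of 0.811 (0.647 to 1.01) in Th1 and of 0.940 (0.749 to 1.18) in Th2. In the 5 kb from 120116001 and the 5 kb from 120121001, which meet at the 5′ end, Th1 had 145 and 125 Ezh2 positions and Th2 had 306 and 322. The 5 kb from 120126001 had 72 in Th1 and 155 in Th2, and the 5 kb from 120131001, which begins 10 kb above the 5′ end, had 125 in Th1 and 303 in Th2. Ezh2 was thus high at the 5′ end, lower next to it and high again farther on, in Th1 as in Th2.

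Of the 35 bins of the Tbx3 region, 20 were called in Th1 and 33 in Th2, and the 20 were all among the 33. Called on its own, Th2 had 1 region here, 34 kb from 120106001 to 120140000, at 8.79-fold (95% interval 7.48 to 10.4). Th1 had 2, from 120111001 to 120126000 at 5.35-fold (4.30 to 6.71) and from 120131001 to 120138000 at 5.60-fold (4.02 to 7.96). Each library's own calls set these spans, so their folds do not compare Th1 with Th2. The bin from 120120001 to 120121000, just below the 5′ end, had 86 Ezh2 and 0 input positions in Th2. Its fold has no upper limit, and the lower bound of its 95% interval was 19.6.

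Tbx5 lay in a region of 19 kb from 120278001 to 120297000, which reached from 7 kb below to 12 kb above its 5′ end. The region held 478 Ezh2 and 123 input positions in Th1, a fold of 5.60 (95% interval 4.58 to 6.89), and 902 and 79 in Th2, a fold of 9.81 (7.79 to 12.5). The control antibody had a fold of 1.00 (0.743 to 1.35) in Th1 and of 1.03 (0.745 to 1.43) in Th2. The bin with the most Ezh2 positions of the window lay 4 kb below the Tbx5 5′ end in Th1, with 46, and 4 kb above it in Th2, with 92. Of its bins 12 were called in Th1 and 16 in Th2, and 12 were called in both. A separate region of 16 kb, from 120244001 to 120260000, lay 41 to 25 kb below the 5′ end of Tbx5, and no 5′ end given here fell in it. It was weaker, with 252 Ezh2 and 92 input positions in Th1, a fold of 3.95 (3.10 to 5.07), and 462 and 81 in Th2, a fold of 4.90 (3.86 to 6.29). It included the bin with the highest fold of the window in Th1, 120251001 to 120252000, with 20 Ezh2 positions and 1 input position, 28.8-fold (4.61 to 1195). In Th2 that bin had 17 Ezh2 and 8 input positions and was not called.

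**Figure D3:**
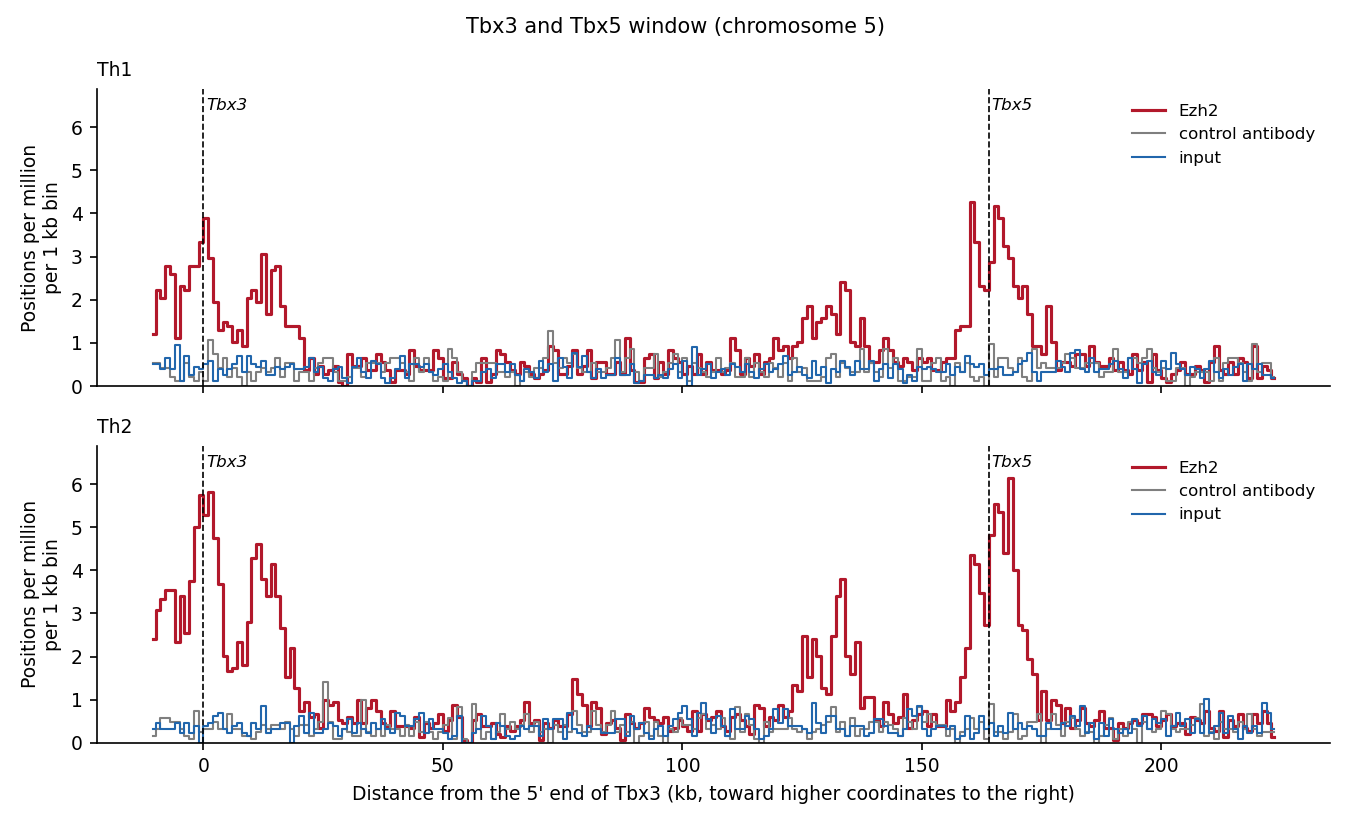
Ezh2, control antibody and input positions per 1000000 library positions in each 1 kb bin of the Tbx3 and Tbx5 window, by distance in kb from the 5′ end of Tbx3 (dashed lines mark Tbx3 and Tbx5), with Th1 above and Th2 below and 1 library per line; the Th2 control antibody was scaled on the 8 chromosomes its file held. The highest Ezh2 bin was 4.26 in Th1 and 6.15 in Th2. The bins between the Tbx3 region and the one 25 to 41 kb below Tbx5 stood at 1.34-fold over input in Th1 and 1.42-fold in Th2.

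Th1 was then compared with Th2 over the regions of at least 3 kb. A two-sided exact binomial test on the Ezh2 positions took as the expected ratio the median over all 2902 regions, 0.617 Th1 positions for each Th2 position, or 0.854 after division by the library totals. Ratios of Ezh2 positions below are relative to that median unless library totals are named, and ratios of folds are relative to the median ratio of folds. By this test 12.5% of all regions passed at an adjusted p below 0.05, and 7.2% were lower in Th1. A conditional exact test of the folds over input, which adds the counting error of the inputs, passed in 0.517% of all regions, and in 0.31% with a lower fold in Th1.

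The Tbx3 region had fewer Ezh2 positions in Th1 than in Th2. The ratio was 0.729 (95% interval 0.668 to 0.795, exact test, adjusted p = 2.62e-11), and it also passed the test of the folds, with a ratio of 0.622 (exact test, adjusted p = 0.00776). Among the 146 regions of at least 20 kb it ranked 10 from the lowest by the ratio of Ezh2 positions and 3 from the lowest by the ratio of folds; the median ratio of Ezh2 positions over the 146 was 0.948, with a range from 0.592 to 1.17. All 7 steps of 5 kb had a ratio below 1, between 0.629 and 0.928, and in 5 of them the upper bound of the interval was below 1. The steps were cut from the region just tested, so they describe it and are not further support. Of its 35 bins, 33 were called in Th2 alone and 20 in Th1 alone, so some steps may owe their place in it to Th2. The 5 bins at the 5′ end had a ratio of 0.656 (0.542 to 0.789). Above the region, over the 103 kb from 120141001 to 120244000, 523 Th1 and 831 Th2 Ezh2 positions gave a ratio of 1.02 (0.913 to 1.14). No bin of this stretch was called, while the median was taken over Ezh2 regions. Genome bins outside called regions held 10150669 Ezh2 positions in Th1 and 13891182 in Th2, more Th1 for each Th2 position than the median region. The expected ratio there is thus above 1, so the 1.02 does not show that the difference ends at the region's edge. Where it ends was not tested. In the Tbx3 region the inputs moved with the ratio of folds. They held 0.453 positions per kb and per 1000000 library positions in Th1 and 0.373 in Th2. The higher input of Th1 lowers its fold, so part of the ratio of folds comes from the inputs. Whether the inputs differed by more than counting error was not tested. The ratio of Ezh2 positions does not use them.

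At Tbx2 no such difference was seen. The ratio of the Tbx2 region was 1.02 (95% interval 0.966 to 1.09, exact test, adjusted p = 0.680), and that of its 5′ end was 1.04 (0.936 to 1.16). These intervals lie wholly above those of Tbx3 and include 1, so a difference of a few percent in either direction is not excluded by the counts. The ratio turned to 0.875 with library totals as the expected ratio (exact test, adjusted p = 6.81e-05), which is close to the 0.854 of the median region on that scale, and to 0.963 for the folds (exact test, adjusted p = 0.974). The second chromosome 11 region stood at 0.983 (interval 0.906 to 1.07, two-sided exact test, adjusted p = 0.857), which with library totals was 0.840 (exact test, adjusted p = 0.00018).

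Tbx5 lay between Tbx2 and Tbx3 in its ratios. Its intervals overlapped those of Tbx3, and at the 5′ end also that of Tbx2. The Tbx5 region had a ratio of 0.859 (95% interval 0.767 to 0.961), which missed the threshold after adjustment (exact test, adjusted p = 0.0558), and the ratio of folds was 0.693 (exact test, adjusted p = 0.306). Its 5′ end stood at 0.825 (0.681 to 0.997). With all deposited reads the ratio of the region was 0.824 and passed (exact test, adjusted p = 1.52e-05), as it did with library totals, at 0.734 (exact test, adjusted p = 5.87e-07). The region 25 to 41 kb below Tbx5 stood at 0.885 (interval 0.755 to 1.03, two-sided exact test, adjusted p = 0.345). It passed with all reads, at 0.807 (exact test, adjusted p = 0.00064), and with library totals, at 0.756 (exact test, adjusted p = 0.00202). The test on all reads treats repeated reads of a position as independent, which PCR copies are not.

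**Figure D4:**
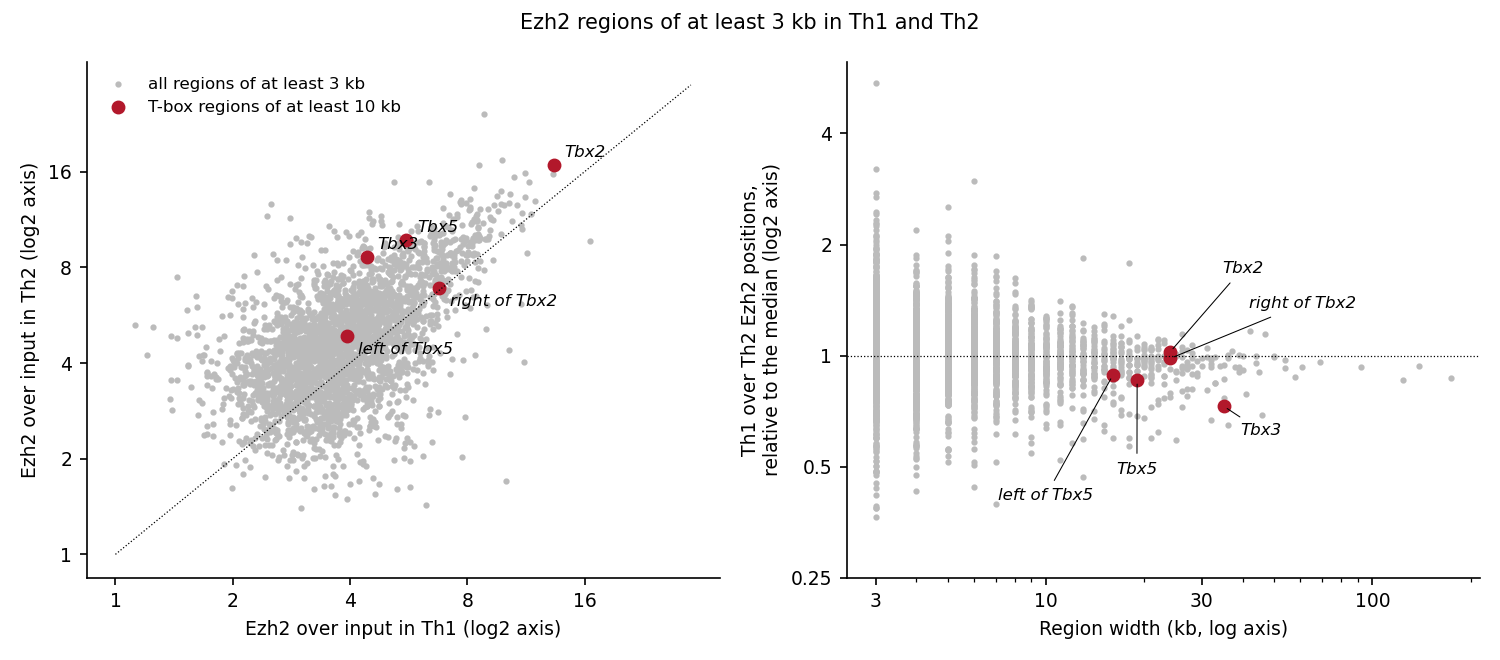
Left, Ezh2 over input in Th1 and in Th2 for the 2902 regions of at least 3 kb (grey) and the 5 T-box regions of at least 10 kb (red), on log2 axes with the line of equal folds dotted. Right, the ratio of Th1 to Th2 Ezh2 positions relative to the median (log2 axis) by region width (log axis); Tbx2 lies at 1.02 and Tbx3 at 0.729.

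Within the windows, bins that were high in Th1 tended to be high in Th2. Spearman's rho of the folds of single bins was 0.657 over the 105 bins of the chromosome 11 window and 0.467 over the 235 of the chromosome 5 window. These values describe bins that share the same 4 libraries and lie next to each other, many with few positions. Reads per distinct Ezh2 position in the 5 wide regions lay between 1.99 and 2.12 in Th1 and between 1.90 and 2.00 in Th2, against 2.24 and 2.04 over the whole libraries, so the T-box regions did not hold more repeated reads than the rest.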

How the data were processed

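ChIP-seq libraries of Th1 and Th2 cells were used as the authors deposited them, with 1 library for each of 6 groups. Each line of the authors' deposited files holds an interval without a strand and a raw read count; 119 bp was the length of nearly all intervals. Fragments of 170 to 250 bp were selected, amplified by 18 PCR cycles and sequenced for 36, per the labels' protocols. Per the submitters' processing notes, CASAVA and the build mm9 were used. How reads were aligned, extended and filtered is not given in the sources used here. Intervals were counted once, at the midpoint, in 1 kb bins and scaled by library totals on chromosomes 1 to 19 and X.

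Bins with under 10 positions were not tested. Folds used to call bins, and ratios of regions, had 0.5 added to each count. P-values were adjusted by Benjamini-Hochberg over the genome, or over 2902 regions. Named were the 4 genes, each region of at least 3 kb in a window and the bin of highest fold. The 4 genes, the windows and the tests were chosen with earlier results of these data known. Other T-box genes were not placed, since no mm9 annotation was used. Alternatives were all reads, other backgrounds and scalings, 2 kb bins, stricter thresholds and equal depth. The calling of bins and the test of Th1 against Th2 Ezh2 positions were checked on simulated data. The conditional exact test of the folds was not. Python 3.11.15, NumPy 2.4.6, pandas 2.3.3 and SciPy 1.17.1 were used.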

Additional observations from a re-analysis of the deposited data

Results flagged for a closer look

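The Tbx3 region, chromosome 5 from 120106001 to 120141000, drew attention because its fold over input differed between the cell types by a test of the difference itself. Ezh2 was 4.42-fold over input in Th1 and 8.62-fold in Th2, a ratio of 0.622 relative to the median region (conditional exact test, adjusted p = 0.00776). Part of this ratio of folds comes from the inputs. Scaled by library total and width as above, the region's input was 0.453 in Th1 and 0.373 in Th2. Whether the inputs differed by more than counting error was not tested. The ratio of Ezh2 positions in this region, which does not use the inputs, was 0.729 relative to the median region. With 1 library per cell type, a difference between cell types and one between libraries cannot be told apart.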

How the results depend on the processing

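No paired analysis was possible because no group had a replicate, and for the same reason no library could be left out. Of the alternatives, the one with the median over regions of at least 20 kb was chosen after seeing the data. The lower Th1 to Th2 ratio of the Tbx3 region held under all 5 alternatives run, with all reads (0.727), library totals (0.623), equal depth (0.715), folds over input (0.622) and regions of at least 20 kb (0.769). Library totals as the expected ratio brought 4 regions past the threshold, chromosome 5 from 120244001 (0.756) and from 120278001 (0.734) and chromosome 11 from 85693001 (0.840) and, with its direction turned, from 85637001 (0.875, exact test, adjusted p = 6.81e-05). It also turned the one from 85729001 (0.921), which did not pass. All reads brought the first pair past it (0.807 and 0.824) and turned the last (0.976), as equal depth did (0.952); none of the turned ratios had passed before. The ratio of folds turned chromosome 11 from 85637001 (0.963) and from 85693001 (1.19), and the median of wide regions turned the one from 85693001 (1.04). Background scaling raised the window folds, to 7.26 in Th1 and 7.95 in Th2 for Tbx2 and Tbx4 and to 2.85 and 3.93 for Tbx3 and Tbx5. With the input of the other cell type the Tbx2 and Tbx4 folds were 5.59 and 6.93, and over the control antibody the Th2 fold of the other window was 3.41. The single bin at the Tbx2 5′ end gave 14.1 in Th1 and 51.0 in Th2. Called kb in the Tbx2 and Tbx4 window became 30 in Th1 with an adjusted p below 0.001 and at least 4-fold, and in Th2 70 with all reads and 66 with 2 kb bins. In the Tbx3 and Tbx5 window they became 60 in Th1 with 2 kb bins, 21 with the strict thresholds, and 81 in Th2 with all reads. Causes were not tested. The Th2 control antibody could not serve on chromosome 11, which its file does not hold. At equal depth the called kb were 41 in Th1 and 41 in Th2 for Tbx2 and Tbx4, and 36 and 55 for Tbx3 and Tbx5.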
